A study of Mus musculus with 7 samples.

Results

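Cathepsins are proteases of the lysosome, the acidic compartment in which cells degrade what they have taken up or no longer need. They are made as inactive precursors, carried to endosomes and lysosomes, and activated there. By the residue that does the cutting they fall into aspartic (cathepsins D and E), serine (cathepsin A) and cysteine enzymes of the papain family (cathepsins B, C, H, K, L, S and Z). In marrow they are known from macrophages, neutrophils and their precursors, antigen-presenting cells and bone-resorbing osteoclasts. The genes described here are Ctsa, Ctsb, Ctsc, Ctsd, Ctse, Ctsh, Ctsk, Ctsl, Ctss and Ctsz, chosen by name; the granule protease cathepsin G (Ctsg) was left out of them. They are 10 of the 50435 gene rows of the table.

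RNA was sequenced from mouse marrow cells gated as sinusoidal endothelium, which lines the venous vessels of the marrow. Every mouse was an irradiated wild-type recipient of Zbtb46dtr marrow, whose cells make a receptor for diphtheria toxin where they express Zbtb46, a transcription factor gene known from classical dendritic cells. The 3 DT samples came from mice given diphtheria toxin 8 weeks after transplantation, at 200 ng in 100 µl of PBS, and the 4 PBS samples from mice given 100 µl of PBS alone. Both were injected into the peritoneum, and marrow was taken 1 day later. The gate kept CD31+ Sca1- cells unstained for CD45, Ter119, Gr1 and CD11b. Donor blood cells carry the gene for the receptor and host vessels do not. The sources used here do not give age, sex or whether animals were pooled. The samples are labelled biological replicates. Values are RPM, reads scaled to the size of each library in units of 1000000 reads, and libraries held an implied 33200000 to 51200000 reads.

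The labelled cell type was not borne out by its markers. The 12 endothelial markers summed to 10.2 to 18.7 RPM in DT and 1.44 to 9.35 RPM in PBS, and 9 of them averaged under 1 RPM. Markers of blood cells were abundant, so the cathepsin values below belong to all cells that were sorted and cannot be assigned to endothelium. All 12 neutrophil markers were called higher in DT (sums of 54830 to 58646 RPM in DT and 1636 to 3101 RPM in PBS), as were all 12 monocyte and macrophage markers (6763 to 8664 RPM in DT and 389 to 765 RPM in PBS). Of the erythroid markers 8 of 10 were called lower (4 by voom) and 1 higher, with sums of 253 to 402 RPM in DT and, in PBS, 735 RPM in replicate 1 and 6467 to 10474 RPM in the other 3. In bulk samples, fewer cells of a type and less RNA per cell cannot be told apart.

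Most cathepsins were more abundant after DT. Of the 10, all of which passed the filter of a mean of 1 RPM, 7 were called higher in DT (Ctsa, Ctsb, Ctsc, Ctsd, Ctsh, Ctss and Ctsz), 0 lower, and 3 were not called (Ctse, Ctsk and Ctsl), by limma at an adjusted p under 0.05. At an unadjusted p under 0.05, 1 was lower (Ctse), and limma voom called 0 lower. Among all 14100 genes tested, 13.4% were called higher and 18.6% lower. In 8 of the 10, the 7 called and Ctsk, every DT library lay above every PBS library, which held for 16.1% of tested genes; the reverse separation held for 0 of the 10 and 24.7% of tested genes. Ctsk passed the filter only through its DT libraries. The median change of the 10 was 1.46 on the log2(RPM + 1) scale, against -0.23 for all tested genes. Summed over the 10, cathepsin RNA stood at 2246, 2085 and 2952 RPM in DT and at 782, 1199, 1020 and 1047 RPM in PBS.

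**Figure D1:**
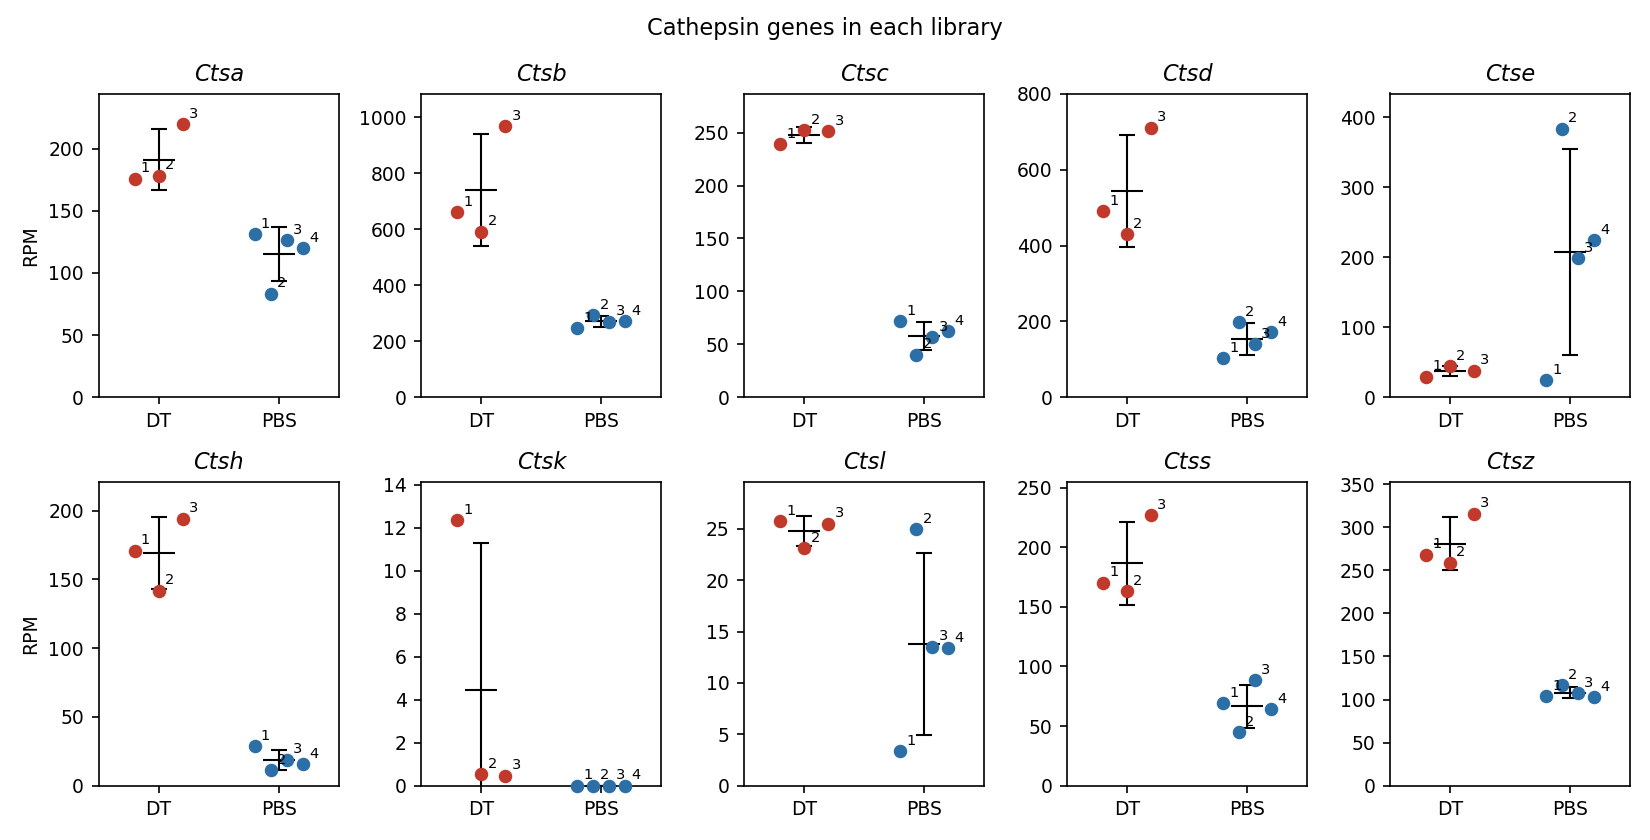
RPM of each cathepsin (linear axes from 0, a scale per panel) in the 3 DT libraries, left, and the 4 PBS libraries, right; points are libraries numbered by replicate, and bars are the mean ± SD, the lower arm of Ctsk in DT being cut off at 0. The groups are apart in 8 panels and overlap in those of Ctse and Ctsl, and Ctsk stands above 1 RPM in 1 DT library only.

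Promoters were read for the members that have an entry in the RefSeq table (7 of 10, with 8 windows, since Ctsa has 2 start sites), as the 250 bases before each start on GRCm38.p6. Both strands were searched for TCACGTGA, the core of the element bound by the lysosomal regulators TFEB and TFE3, for the shorter CACGTG inside it, for GAGGAA, a core of PU.1-type motifs, and for GAAANNGAA, an interferon regulatory factor type motif. TCACGTGA lay in the window of Ctsd, 99 bases before its start, and in the second window of Ctsa, 13 bases before; 0.785% of all 32851 windows hold it. CACGTG, held by 6.02% of windows, also lay 245 bases before the Ctsd start and 236 before that of Ctsl. GAGGAA, held by 23.3% of windows, lay in those of Ctss, Ctsc and Ctsk. GAAANNGAA, held by 7.13% of windows, lay in that of Ctss, 21 bases before the start. A match is a run of letters and not a measured binding site. The 3 windows below are shown because they hold the TCACGTGA matches and the only window with both PU.1-type and interferon regulatory factor type letters; capitals mark the matches, and each is written 5′ to 3′ on the strand of its gene.
Ctsd promoter, chr7:142387828-142388077, minus strand: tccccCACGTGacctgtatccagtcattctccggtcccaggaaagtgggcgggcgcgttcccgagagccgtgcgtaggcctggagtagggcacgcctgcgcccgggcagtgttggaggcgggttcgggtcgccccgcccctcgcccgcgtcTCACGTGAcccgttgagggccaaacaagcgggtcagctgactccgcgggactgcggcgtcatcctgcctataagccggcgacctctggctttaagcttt
Ctsa promoter at the second start, chr2:164833523-164833772, plus strand: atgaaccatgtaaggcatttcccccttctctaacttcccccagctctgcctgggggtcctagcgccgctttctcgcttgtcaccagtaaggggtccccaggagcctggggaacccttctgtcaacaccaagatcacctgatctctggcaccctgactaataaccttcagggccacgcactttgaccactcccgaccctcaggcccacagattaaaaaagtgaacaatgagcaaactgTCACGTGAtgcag
Ctss promoter, chr3:95526536-95526785, plus strand: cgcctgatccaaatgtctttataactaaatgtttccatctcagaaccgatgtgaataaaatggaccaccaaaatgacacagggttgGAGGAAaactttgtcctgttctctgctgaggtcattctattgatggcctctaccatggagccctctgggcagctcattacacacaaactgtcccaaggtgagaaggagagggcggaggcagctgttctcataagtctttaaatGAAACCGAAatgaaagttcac
The second Ctsa window and the Ctsl window lie inside their annotated genes, as does most of the Ctsd window. The Ctsd and Ctsa genes, which carry TCACGTGA, changed by 1.83 and 0.74 on the log2 scale, and Ctsz, whose window held none of the 4 motifs, changed by 1.37.

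Of the aspartic cathepsins, Ctsd was called higher and Ctse was not called. Ctsd (chr7:142375911-142388038, minus strand on mm10), the main aspartic endopeptidase of lysosomes, stood at 491, 431 and 711 RPM in DT and at 103, 199, 140.0 and 171 RPM in PBS. The lowest DT library was above the highest PBS library. The means were 544 ± 148 RPM in DT (SD, n = 3) and 153 ± 41.3 RPM in PBS (SD, n = 4), a 3.55-fold difference, with a log2 change of 1.83 (SE 0.24; limma, adjusted p = 0.000496). Ctse (chr1:131638306-131675505, plus strand), an aspartic protease known from red cell membranes, stomach and some immune cells, stood at 29.5, 44.1 and 38.0 RPM in DT and at 24.3, 384, 199 and 225 RPM in PBS. PBS replicate 1 lay below all DT libraries, and the other 3 PBS libraries lay far above them. The log2 change was -1.94 (95% interval -3.61 to -0.27; limma, adjusted p = 0.0719), so Ctse was not called. Without PBS replicate 1 it was called lower, with a change of -2.78 (limma, adjusted p = 3.21e-05), and over 18 alternatives its adjusted p ran from 3.21e-05 to 0.243. Ctse per Ctsd, as a ratio of RPM, was 0.0534 to 0.102 in DT and 0.236 to 1.93 in PBS.

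PBS replicate 1 was also the library with the low erythroid sum. Across the 4 PBS libraries Ctse ran in the order replicate 2, 4, 3, 1, as did Ctsb and Ctsd, both called higher in DT, and the megakaryocyte gene Itga2b. Of the 10 erythroid markers, 4 had this order (Rhag, Car2, Gfi1b and Slc4a1), 5 had 2, 3, 4, 1 and 1 had 3, 2, 4, 1, so replicate 1 was the lowest for all 10. The ratio of Ctse to Rhd, an erythroid membrane gene, was 8.78 to 9.70 in DT and 1.15 to 1.43 in PBS. The ratio of Ctse to Ermap was 5.02 to 6.98 in DT and 0.772 to 1.57 in PBS, and to Klf1, an erythroid transcription factor gene, 8.38 to 26.0 in DT and 2.72 to 4.72 in PBS. Rhd was at 3.96 ± 0.589 RPM in DT (SD, n = 3) and 162 ± 114 RPM in PBS (SD, n = 4), with a log2 change of -4.55 (limma, adjusted p = 0.00142). These ratios were selected with the values known. The part of erythroid cells in the Ctse values was not tested.

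Ctsa (chr2:164832873-164841032, plus strand), the serine carboxypeptidase that also protects the lysosomal enzymes neuraminidase and beta-galactosidase, showed the smallest change of the 7 called. It stood at 176, 178 and 220 RPM in DT and at 131, 83.5, 127 and 120 RPM in PBS, without overlap. The log2 change was 0.74 (SE 0.18; limma, adjusted p = 0.0125), and the ratio of means was 1.66. Without DT replicate 3, the highest library, it was 0.64 with an adjusted p of 0.0664 in limma; over 18 alternatives that p ran from 0.00299 to 0.0664. Ctsa shares 495 exon bases with Pltp on the opposite strand; Pltp was at 8.57 ± 1.59 RPM in DT and 0.686 ± 0.891 RPM in PBS (SD), well below Ctsa. The sources used here do not say whether strand was used in counting.

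Among the cysteine endopeptidases, Ctsb and Ctss were higher and Ctsl was not called. Ctsb (chr14:63122462-63145923, plus strand), which cuts within proteins and also removes dipeptides from their ends, stood at 663, 592 and 969 RPM in DT and at 246, 294, 270.1 and 272 RPM in PBS. All DT libraries were at least 592 RPM and no PBS library passed 294. The log2 change was 1.42 (SE 0.18; limma, adjusted p = 0.000328), a 2.74-fold ratio of means. Ctsb shares 774 exon bases with Fdft1 on the opposite strand, which was at 24.5 ± 2.46 RPM in DT and 18.4 ± 7.75 RPM in PBS (SD).

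Ctss (chr3:95526786-95556403, plus strand), which trims the invariant chain of class II molecules in B cells, dendritic cells and macrophages, stood at 170.3, 163 and 227 RPM in DT and at 69.0, 44.8, 88.8 and 64.4 RPM in PBS. The groups did not overlap, and DT replicate 3 was again the highest. The log2 change was 1.50 (SE 0.22; limma, adjusted p = 0.00104). Ctsl (chr13:64359337-64370890, minus strand), which does the same trimming in thymic epithelium, stood at 25.7, 23.1 and 25.5 RPM in DT and at 3.37, 25.0, 13.5 and 13.3 RPM in PBS. PBS replicate 2 lay within the DT values and PBS replicate 1 far under the rest. The change was 1.05 (95% interval -0.05 to 2.15; limma, adjusted p = 0.127); without PBS replicate 2 it was 1.41 (limma, adjusted p = 0.0410), without PBS replicate 1 it was 0.55 (limma, adjusted p = 0.114), and over 18 alternatives the adjusted p ran from 0.0381 to 0.316. An antisense transcript, Gm47123, shares 1742 exon bases with Ctsl, so reads of the pair cannot be told apart without strand. On the same strand, where strand does not separate reads, the pseudogene Gm49230 shares 395 exon bases with Ctsl and the protein-coding Gm49369 shares 808 with Ctsd. Gm47123, Gm49230 and Gm49369 have no row of that name in the deposited values, so their levels cannot be given.

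Ctsk (chr3:95499256-95509362, plus strand), the collagen-cutting cathepsin of osteoclasts, stood at 12.3, 0.547 and 0.468 RPM in DT and at 0 in all 4 PBS libraries. One DT library carried most of the signal. Set against a floor of 3 reads per library (a mean of 0.0809 RPM in PBS), the DT mean was at least 55.0-fold higher, and without DT replicate 1 at least 6.27-fold higher; both cover counting error only. Limma did not call it (log2 change 1.64, SE 0.68, adjusted p = 0.0901; 0.0274 to 0.249 over 15 alternatives). Ctsk lies 17423 bases from Ctss on chromosome 3, but the 2 genes differed in level: per kb of transcript, Ctss was at 138 ± 25.7 RPM in DT and 49.3 ± 13.3 RPM in PBS. Genes of the osteoclast were searched for the same library pattern. Ocstamp and Dcstamp, needed for osteoclast fusion, were at 1.14 and 0.198 RPM in DT replicate 1 and at 0 in the other 6 libraries, and Atp6v0d2, the proton pump subunit of osteoclasts, was at 4.55 RPM there and at most 0.0476 RPM elsewhere. Calcr, the calcitonin receptor, was above 0 in DT replicate 3 only. Itgb3, also on the osteoclast list, was lowest in replicate 1 among the DT libraries. Of the 6 listed markers, the highest DT library was replicate 1 for 2, replicate 2 for 2 and replicate 3 for 1. Oscar was at 0 in every DT library, so none was highest. Acp5, the acid phosphatase used to stain osteoclasts, was at 36.9, 42.1 and 38.2 RPM in DT and at 42.2, 22.5, 35.2 and 32.3 RPM in PBS, with DT replicate 1 no higher than the rest. The 6 osteoclast markers summed to 51.8 to 65.5 RPM in DT and 38.8 to 52.4 RPM in PBS, and 0 of the 2 tested were called by limma, by voom or at an unadjusted p under 0.05. Their part in the Ctsk values was not tested.

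The exopeptidases, which trim proteins from their ends, included the largest changes among the 7 called. Ctsh (chr9:90054152-90076089, plus strand), mainly an aminopeptidase, stood at 171, 142 and 194 RPM in DT and at 29.0, 11.5, 18.9 and 15.6 RPM in PBS. The lowest DT library was several times the highest PBS library. The means were 169 ± 26.3 RPM in DT and 18.8 ± 7.47 RPM in PBS (SD), a 9.01-fold ratio, with a log2 change of 3.17 (SE 0.27; limma, adjusted p = 3.30e-05). Ctsc (chr7:88278085-88310888, plus strand), the dipeptidyl peptidase that activates the serine proteases of neutrophil, mast cell and killer cell granules, stood at 239, 252 and 251 RPM in DT and at 71.8, 40.1, 57.0 and 62.4 RPM in PBS. The 3 DT libraries lay close together, well above PBS, and the log2 change was 2.11 (SE 0.19; limma, adjusted p = 4.40e-05), a 4.28-fold ratio. Ctsz (chr2:174427493-174439039, minus strand), a carboxypeptidase, stood at 268, 259 and 316 RPM in DT and at 104, 117, 107 and 103 RPM in PBS. These groups were also apart, with a log2 change of 1.37 (SE 0.13; limma, adjusted p = 6.09e-05) and the smallest standard error of the 10.

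**Figure D2:**
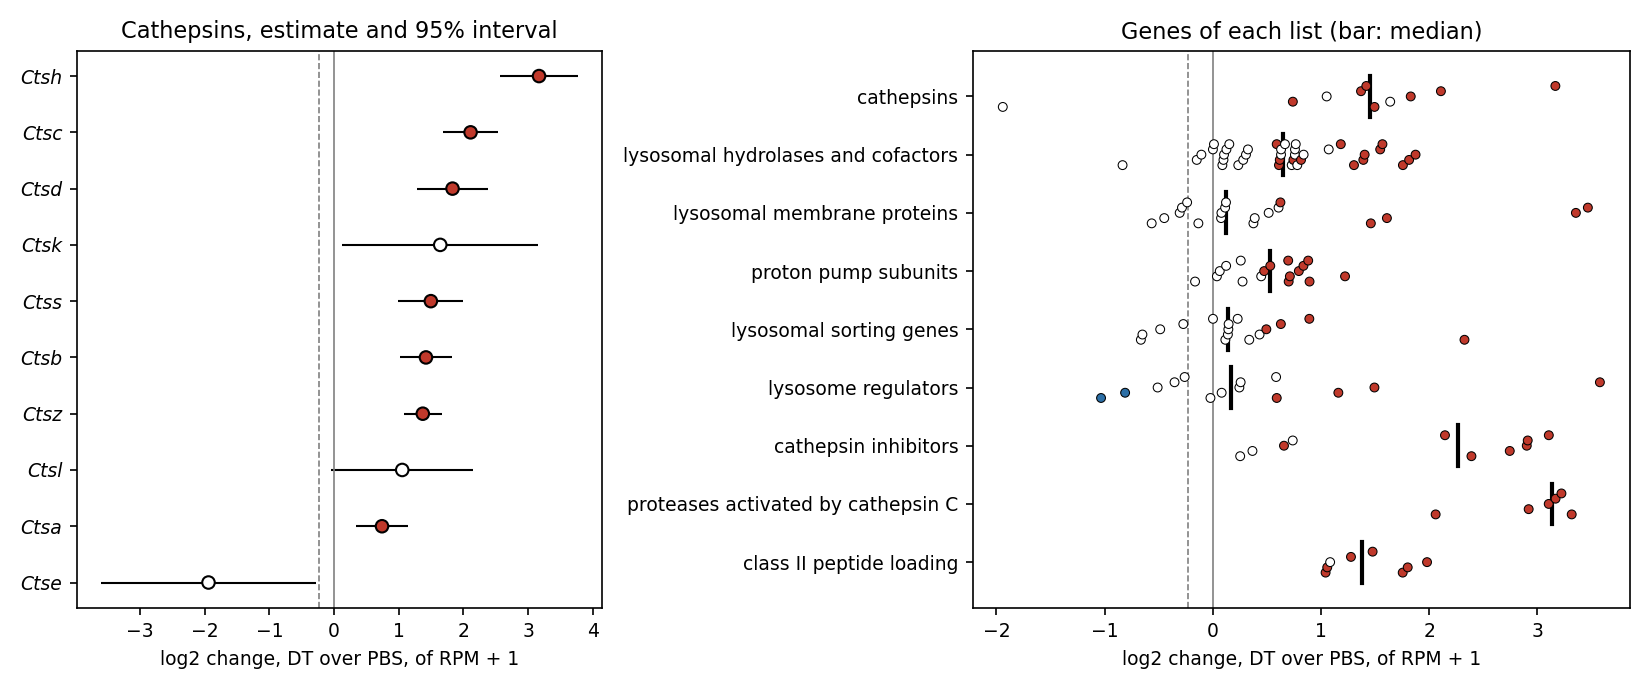
Left, log2 change (DT over PBS, log2(RPM + 1) scale) of each cathepsin with its 95% interval; filled red points were called, open points were not, and the dashed line is the median of all tested genes, -0.23. Right, the same change for genes of 9 lists, red called higher, blue called lower, open not called, with the median as a bar; of the lists shown, only the regulators hold genes called lower.

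Levels can be set against each other only per length, here RPM per kb of the shortest principal transcript. In DT the order was Ctsd (256 ± 69.4), Ctsz (195 ± 21.1), Ctsb (156 ± 42.3), Ctss (138 ± 25.7), Ctsh (104 ± 16.2), Ctsc (99.3 ± 2.93), Ctsa (52.5 ± 6.72), Ctse (17.5 ± 3.43), Ctsl (12.6 ± 0.732) and Ctsk (2.95 ± 4.52; SD, n = 3). In PBS it was Ctse (97.8 ± 69.3), Ctsz (74.8 ± 4.33), Ctsd (72.0 ± 19.4), Ctsb (57.1 ± 4.16), Ctss (49.3 ± 13.3), Ctsa (31.6 ± 5.94), Ctsc (23.2 ± 5.35), Ctsh (11.6 ± 4.62) and Ctsl (7.01 ± 4.48; SD, n = 4), with Ctsk at 0. In DT the neighbours Ctsd and Ctsz, Ctsz and Ctsb, Ctsb and Ctss, and Ctsh and Ctsc differed by less than the larger of their SDs. In PBS this held for each neighbouring pair from Ctse down to Ctss, and for Ctsh and Ctsl. Over all exons joined, Ctsb came below Ctss in both groups (122 and 138 RPM per kb in DT; 44.7 and 49.2 in PBS), so the order of that pair rests on the transcript chosen. On the same lengths Ctsh (37.6) came below Ctsc (42.6) and Ctsa (40.6) in DT, and Ctse (65.6) came below Ctsz (74.8) in PBS. Ctse took 1.73% ± 0.501 of the summed RPM per kb in DT and 21.2% ± 13.2 in PBS. Ctsd took 24.5% ± 2.30 in DT and 16.8% ± 1.85 in PBS, and Ctsh 10.1% ± 0.691 in DT and 2.98% ± 1.84 in PBS (SD). Ctsz was steadier, at 19.0% ± 1.17 in DT and 18.0% ± 3.12 in PBS. Another principal transcript of Ctsl is 6168 bases long and would lower its value.

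**Figure D3:**
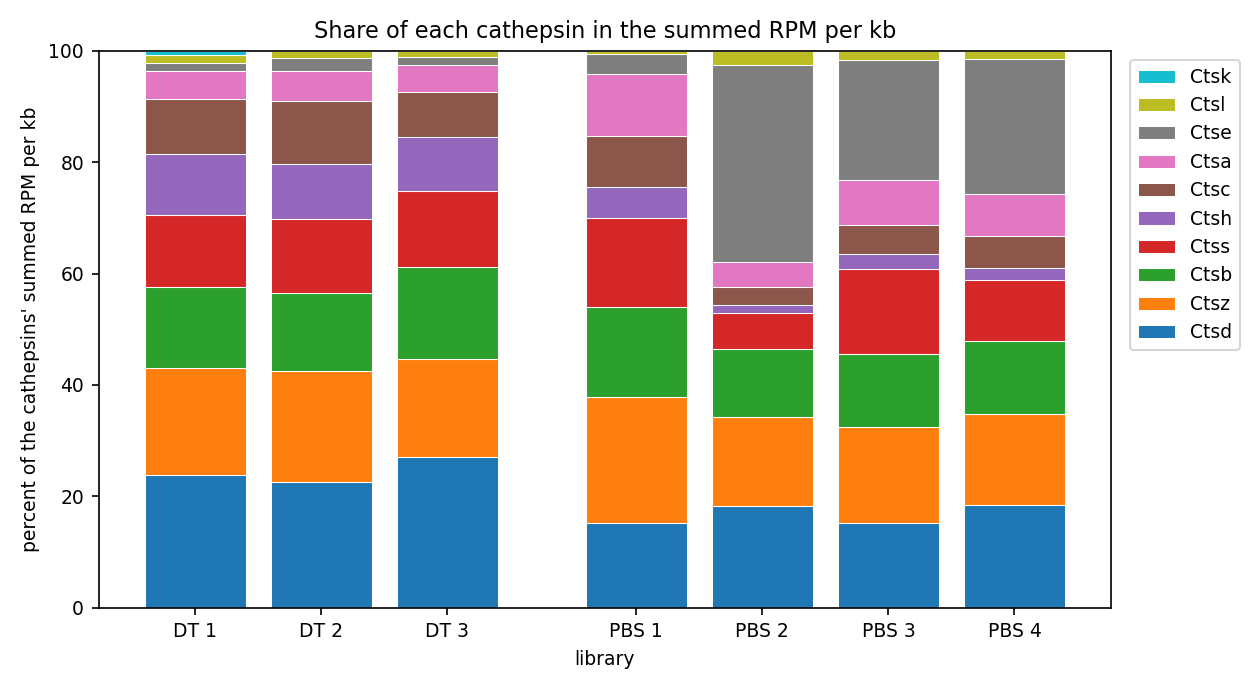
Percent of the cathepsins' summed RPM per kb taken by each gene in every library, the 3 DT libraries on the left and the 4 PBS libraries on the right. The Ctse band is between 1.44 and 2.31% in DT and is 3.58, 35.5, 21.6 and 24.2% in PBS replicates 1 to 4.

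The libraries of a group did not rank alike for every cathepsin. DT replicate 3 was the highest DT library for 6 of the 10 (Ctsa, Ctsb, Ctsd, Ctsh, Ctss and Ctsz). It was also the highest for 10 of the 12 monocyte and macrophage markers, among them C1qb, a complement gene of macrophages (33.6, 41.4 and 101 RPM in DT replicates 1 to 3), for 9 of the 12 endothelial markers and 7 of the 8 class II loading genes, and for 2 of the 12 neutrophil markers. Of the 105 other lysosomal genes, 44 were highest in DT replicate 1 and 38 in replicate 3. Of the 18 proton pump subunits among them, 12 were highest in replicate 1 and 4 in replicate 3. In PBS, Ctsb, Ctsd and Ctse had the order 2, 4, 3, 1, while Ctsa and Ctsh had 1, 3, 4, 2. Genes of several cell types shared the latter order, among them Elane (neutrophil precursors), Cd79a and Cd79b (B lineage) and Nkg7 (T and natural killer cells). In DT the order was 1, 3, 2 for Elane, 3, 1, 2 for Ctsh and 3, 2, 1 for Ctsa. The part of cell types in these orders was not tested. Ctsh kept about the same ratio to Ccr2, a monocyte receptor gene, in both groups (0.688 to 0.884 in DT and 0.658 to 1.07 in PBS). Ctsb per Cd68, a macrophage lysosome gene, was 6.11 to 7.02 in DT and 15.6 to 63.3 in PBS. These ratios were picked with the values known.

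**Figure D4:**
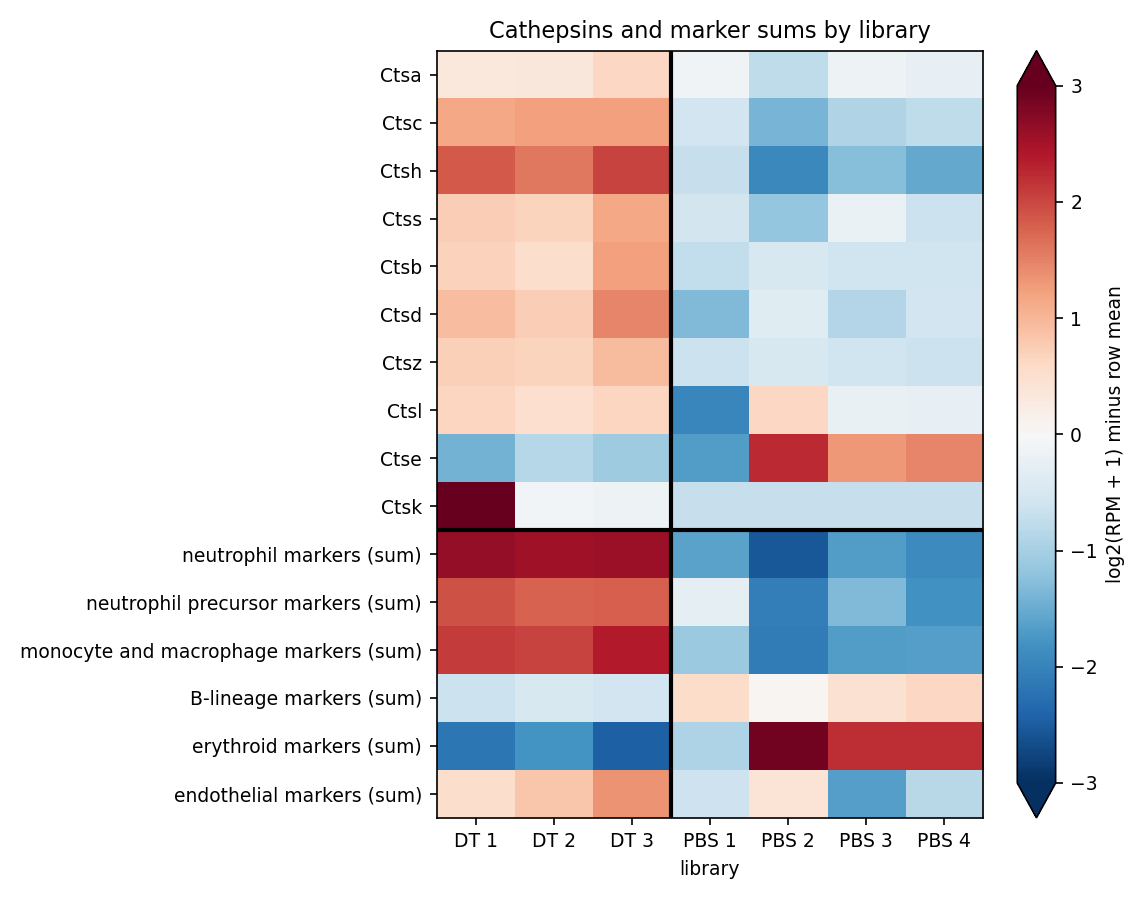
Heat map of log2(RPM + 1) minus the mean of its row, for the 10 cathepsins and the summed markers of 6 cell types (rows), in the 3 DT libraries, left, and the 4 PBS libraries, right; colours stop at ±3. Ctse in PBS replicate 1 sits with the low values of DT. The erythroid sum of that library (735 RPM) lies above those of DT (253 to 402 RPM) and below those of the other PBS libraries.

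The other genes of the lysosome were counted beside the cathepsins. Of 104 tested genes for lysosomal enzymes, membrane proteins, proton pump, sorting and regulators, 37 (35.6%) were called higher and 2 (1.92%) lower in DT, with a median change of 0.41. Summed, they stood at 9400.04, 9094 and 9760.4 RPM in DT and at 6658, 6099, 6282 and 6764 RPM in PBS. The cathepsin sum amounted to 23.9, 22.9 and 30.2% of that in DT and to 11.7, 19.7, 16.2 and 15.5% in PBS, without overlap.

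For comparison, 13.4% of all tested genes were called higher and 18.6% lower. Among lysosomal hydrolases 14 of 38 (36.8%) were higher and 0 lower, with a median of 0.65. At an unadjusted p under 0.05, 1 was lower, and voom called 0. Hexa, which degrades gangliosides, was at 134 ± 22.8 RPM in DT and 36.1 ± 8.41 RPM in PBS (SD; log2 change 1.88, limma, adjusted p = 0.00014), and Man2b1, which removes mannose from glycoproteins, changed by 1.31. Among membrane proteins 5 of 19 (26.3%) were higher and 0 lower, with a median of 0.12. At an unadjusted p under 0.05, 2 were lower, and voom called 1. Cd63 was at 146 ± 20.4 RPM in DT and 14.2 ± 5.54 RPM in PBS (SD), and Lamp2, a structural protein of the lysosomal membrane, changed by 1.46. Of the proton pump, which acidifies the compartment so that cathepsins can work, 10 of 17 subunits were higher and 0 lower, with a median of 0.53; unadjusted and by voom 0 were lower. Atp6v0b and Atp6v0c of its membrane ring changed by 0.84 and 0.88.

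Of 16 genes that sort enzymes to lysosomes, 4 (25%) were higher and 0 lower, with a median of 0.15. Unadjusted, 2 were lower, and voom called 0. Among all tested genes, 13.4% were higher and 18.6% lower. Sort1, a receptor that carries lysosomal proteins, was at 36.8 ± 4.56 RPM in DT and 6.61 ± 1.53 RPM in PBS (SD; log2 change 2.33, limma, adjusted p = 8.56e-05), and M6pr, a mannose 6-phosphate receptor that carries many cathepsin precursors, changed by 0.89 (limma, adjusted p = 0.0058). Of 14 regulators 4 (28.6%) were higher and 2 (14.3%) lower, against 13.4% and 18.6% of all tested genes. At an unadjusted p under 0.05, 3 were lower, and voom called 3 lower. Tfec, a relative of TFEB expressed in macrophages, was at 21.8 ± 4.36 RPM in DT and 0.986 ± 0.648 RPM in PBS (SD; log2 change 3.58, limma, adjusted p = 8.94e-05). Its PBS mean is under the filter, which Tfec passed only through its DT libraries. Tfeb and Tfe3 were not called (changes of 0.59 and 0.26; limma, adjusted p = 0.131 and 0.493). The 2 lower by limma were the kinase gene Mtor and its partner Rptor, which restrain TFEB at the lysosome. Their changes were -1.03 and -0.81 (limma, adjusted p = 0.00612 and 0.0131). In PBS, Mtor was at 86.7 RPM in replicate 1 and at 52.9 to 56.0 RPM in the others.

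Inhibitors of cysteine cathepsins were higher in the same samples. Of the 10 tested of 14 listed, 7 (70%) were called higher and 0 lower, with a median of 2.27. Unadjusted and by voom 0 were lower. Among all tested genes, 13.4% were called higher and 18.6% lower. Stfa1, 1 of the 7, was at 0.0582 to 1.07 RPM in PBS and passed the filter only through its DT libraries. Gm5483 and Stfa2l1, stefin A genes known from mouse neutrophils, were at 16.1 ± 1.19 and 16.0 ± 1.23 RPM in DT and at 1.02 ± 0.471 and 1.29 ± 0.498 RPM in PBS (SD). The stefin A genes are near-identical copies, so reads may be split among them. Cst3, the secreted inhibitor cystatin C, was at 296 ± 6.08 RPM in DT and 188 ± 19.1 RPM in PBS (SD), a log2 change of 0.66 (limma, adjusted p = 0.0041).

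Genes that act with single cathepsins were also counted, beside 13.4% called higher and 18.6% lower among all tested genes. Of the proteases that cathepsin C activates, 6 of the 6 tested were called higher, with a median of 3.14; 3 of them are also in the neutrophil precursor list. Elane, neutrophil elastase, was at 2258 ± 155 RPM in DT and 279 ± 184 RPM in PBS (SD; log2 change 3.22, limma, adjusted p = 0.000282), and Ctsc per Elane was 0.0996 to 0.121 in DT and 0.133 to 0.393 in PBS. Of the genes for class II peptide loading, in which cathepsin S takes part, 7 of 8 were called higher and 0 lower, with a median of 1.38; 0 were lower unadjusted or by voom. Cd74, the invariant chain that cathepsin S trims, stood at 1474, 1841 and 2179 RPM in DT and at 611, 332, 776 and 456 RPM in PBS, without overlap (log2 change 1.80, limma, adjusted p = 0.00106). H2-Eb1, a class II chain, changed by 1.98. The B-lineage markers, whose cells also carry class II, were lower in 8 of 9 cases, with sums of 3157 to 3566 RPM in DT and 5187 to 7643 RPM in PBS.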

How the data were processed

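The labels' protocols name 1 ng of RNA per library, a SMARTer Ultra Low kit, 14 amplification cycles and single reads of 50 bases. Per the submitters' processing notes, STAR 2.5.3a, Partek and the mm10 build were used; the sources used here do not give the annotation or strand use. The deposited table is named for FPKM, but the authors' values behave as RPM: the commonest low value of a library is shared by genes of all lengths. That value, taken as 1 read after an offset of 0.0001, gave the depth; 3 reads equal 0.0585 to 0.0904 RPM. Whole reads were not recovered. The design foresaw that the values could be RPM, and the planned test was kept.

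Genes averaging at least 1 RPM were fitted as log2(RPM + 1) with limma 3.58.1 (R 4.3.3) with an intensity trend, two-sided, with Benjamini-Hochberg adjustment over 14100 genes at 0.05. The scale understates changes of low genes. The filter took the mean over all libraries, so a gene low in PBS could pass it through DT alone. Folds are ratios of mean RPM. The fit was tested on simulated data with few changed genes and a fixed spread, which does not check the calls made here. The members and lists were chosen with earlier results of these data known. Besides the cathepsins, a rule picked up to 3 called members of each list with the smallest p and the most abundant cell type markers. The text names some of these and gives the rest as counts and sums; 1 of them is not reported here. Others were chosen after their values were seen. Among these are Rptor, Tfeb, Tfe3, Cst3, Cd74, C1qb, Ccr2 and the osteoclast genes. Positions and lengths are from GENCODE vM21 on mm10, and 26 rows carry names turned into dates and are not named. Alternatives covered the pseudocount, the filter, scaling, the trend, sample weights, a replicate block and single left-out libraries. Limma voom on estimated reads and leaving out both libraries numbered 1 were chosen after seeing the data.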

Additional observations from a re-analysis of the deposited data

Results flagged for a closer look

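Of the 9 cathepsins with PBS values above 0, none had a PBS library standing apart by Dixon's criterion; Ctsk, at 0 in all 4, was not examined. The criterion was applied to 102 sets of 4 PBS values; chance marks about 1 in 20 such sets. Among the list genes, PBS replicate 1 stood alone above the other 3 for Mtor (86.7 RPM against 52.9 to 56.0), Ctsg (46.7 against 14.5 to 18.8), H2-DMb1 (21.2 against 13.4 to 14.7), Ly6c2, a monocyte gene (178 against 81.7 to 96.8), and Flt3, a dendritic cell and progenitor gene (4.28 against 0.129 to 0.712). PBS replicate 2 stood alone above the others for the bone matrix genes Col1a1 (22.7 RPM), Col1a2 (12.0 RPM) and Bglap (6.65 RPM), and the summed bone and stromal markers were 43.0 RPM there and 0.723 to 4.53 RPM in the other 3. It stood alone below the others for Tfec (0.0256 RPM against 1.16 to 1.40). PBS replicate 3 stood alone for the plasma cell gene Jchain (38.7 RPM against 0.783 to 3.63).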

How the results depend on the processing

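Ctsb, Ctsc, Ctsd, Ctsh, Ctss and Ctsz were called higher under all 18 alternatives, and 0 cathepsins changed direction under any. The count of cathepsins higher was 6 to 8 over all settings, and 6 to 8 when single libraries were left out. The count lower was 1 (Ctse) with sample weights and 1 on leaving out both libraries numbered 1, and 0 to 1 over single left-out libraries. With sample weights Ctse changed by -2.28 (limma, adjusted p = 0.00257) and Ctsl by 0.91 (limma, adjusted p = 0.0381), and with a pseudocount of 0.1 Ctsk passed at 4.05 (limma, adjusted p = 0.0274). Ctsk was not tested with a minimum mean of 5 or without DT replicate 1. Lysosomal genes lower numbered 4 with no filter, 1 with median-ratio scaling, 8 with sample weights and 4 with voom, and 1 to 4 without single libraries; those higher were 24 (DT replicate 3) to 41 without single libraries and 29 to 51 over the other settings, with 51 under median-ratio scaling. All genes lower numbered 1689 with no filter, 1259 with median-ratio scaling and, without single libraries, 1208 (DT replicate 3) to 3628 (PBS replicate 1). Rises were 65.6% of calls with median-ratio scaling, which moved the median change to -0.01, against 41.9% as deposited. The replicate block gave 7 cathepsins higher, 1 lysosomal gene lower and 1574 genes lower. Samples sharing a number correlated at 0.0103 to 0.0485 in their deviations. Pairs of unlike number were not compared, so whether the numbers pair the samples is not known. Except where construction shows it (fewer samples or more genes), the cause was not tested.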

Other observations

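The papain family has 12 other mouse members on the list used here, of which 2 passed the filter. Ctsw, a cathepsin of killer lymphocytes, was at 5.99, 14.5 and 4.35 RPM in DT and at 2.05, 0.843, 2.45 and 1.09 RPM in PBS, without overlap (log2 change 1.73, limma, adjusted p = 0.0117). All 6 T and natural killer markers were called higher in the same libraries, with Nkg7, a granule gene, at 270.2 ± 20.8 RPM in DT and 28.0 ± 14.5 RPM in PBS (SD). Ctso was not called, at 17.4, 29.1 and 21.9 RPM in DT and at 13.1, 15.3, 22.4 and 24.2 RPM in PBS. In 9 of the 12, mostly genes known from the placenta, every library was under 3 reads.

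Of the remaining cell type lists, 4 of 4 basophil and mast cell genes and 3 of 4 tested dendritic cell genes were called higher. Of the dendritic cell genes 0 were called lower, against 1 lower at an unadjusted p under 0.05 and 0 by voom. Of 3 tested plasma cell genes, 1 was called higher and 1 lower, against 2 lower unadjusted and 1 by voom. By limma, voom or unadjusted p, 0 of 4 megakaryocyte and 0 of 3 tested bone and stromal genes were called. Among all tested genes, 13.4% were called higher and 18.6% lower. All 5 neutrophil precursor markers were called higher, with sums of 6801 to 7449 RPM in DT and 472 to 1658 RPM in PBS.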
